A study of Mus musculus with 6 samples.

Results

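Transcripts of 33 genes that mark astrocytes were followed in the hippocampus of mice lacking Rbfox1 in the neural lineage. The genes were taken from a written list and looked up by symbol in the authors' gene table, and those with an FPKM of 1 or more in either genotype were counted as members. FPKM is a fragment count scaled for transcript length and for the number of mapped fragments. A level in FPKM is therefore relative to the other transcripts of its pool. All 33 symbols were found among the 23235 genes of the table, and 30 reached that level. Of the 12 genes listed for reactivity 9 were members, and of the 21 listed for identity all 21 were members. The members were chosen with earlier results of these data known.

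The samples were hippocampi of 6 male mice aged 60 to 70 days. The Nes-cKO group held 3 mice with the genotype Rbfox1 fl/fl; Nes/+, and the wildtype group held 3 mice with the genotype Rbfox1 fl/fl; +/+. Both groups therefore carried the floxed Rbfox1 alleles, and the group difference combines loss of Rbfox1 with the presence of the Nestin-driven Cre, which cannot be told apart here. Nestin-Cre acts in neural progenitors, so neurons, astrocytes and oligodendrocytes all descend from recombined cells, and the deletion was not limited to astrocytes. The gene table gave 1 pooled FPKM value per genotype, so no value below has a replicate error and overlap between mice could not be examined. Each call rests on the q-value of the authors' Cuffdiff test of 3 against 3 mice, with a threshold of 0.05. The deleted gene Rbfox1 stood at 22.96 FPKM in Nes-cKO, against 67.48 FPKM in wildtype, and passed that threshold in the authors' deposited table (q = 0.00152). Read depth of the libraries is not known from these values.

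Astrocytes are the glial cells that clear glutamate and potassium from the extracellular space, exchange metabolites with neurons through glutamine and lactate, couple to each other through connexin gap junctions and wrap blood vessels with end-feet rich in aquaporin 4. After injury, seizures or inflammation they become reactive: they enlarge, raise intermediate filament proteins such as GFAP and vimentin, and switch on secreted and surface proteins, often through the cytokine-activated transcription factor STAT3. In the hippocampus, GFAP, vimentin and nestin are also made by the radial glia-like stem cells of the dentate gyrus. In whole tissue, more cells of a type and more RNA per cell cannot be told apart.

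Calls among the members went in both directions, and the members did not move as a single class. Gfap and Cd44 rose among the reactive genes, Aqp4 rose and Glul fell among the identity genes, and the other 26 of the 30 members did not pass. The 4 called members, 3 higher and 1 lower, are set against 7.1% called among the 12685 tested genes at 1 FPKM or more, of which 4.69% were higher and 2.41% lower. Against wildtype, the median log2 ratio was 0.28 for the 9 reactive members and -0.08 for the 21 identity members, while all tested genes at this level had a median of 0.03. The difference of the medians, reactive minus identity, was 0.36 on the log2 scale and is given as a description without a test. The reactive members Cd44 and Osmr reached 1 FPKM through their Nes-cKO value alone. Over all 11 reactive genes that the authors tested, whatever their level, the median log2 ratio was also 0.28, and 10 of the 11 lay above wildtype. Of these 11, 2 were called higher and none lower by the authors' Cuffdiff test, where 4.62% of all 14964 tested genes were called higher and 2.29% lower. At an unadjusted p under 0.05 in the authors' deposited table, 4 reactive members were higher and 0 lower, and 2 identity members were higher and 3 lower, against 9.22% higher and 5.42% lower of tested genes at 1 FPKM or more. Among tested genes at 1 FPKM or more, 57.7% lay above wildtype.

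**Figure D1:**
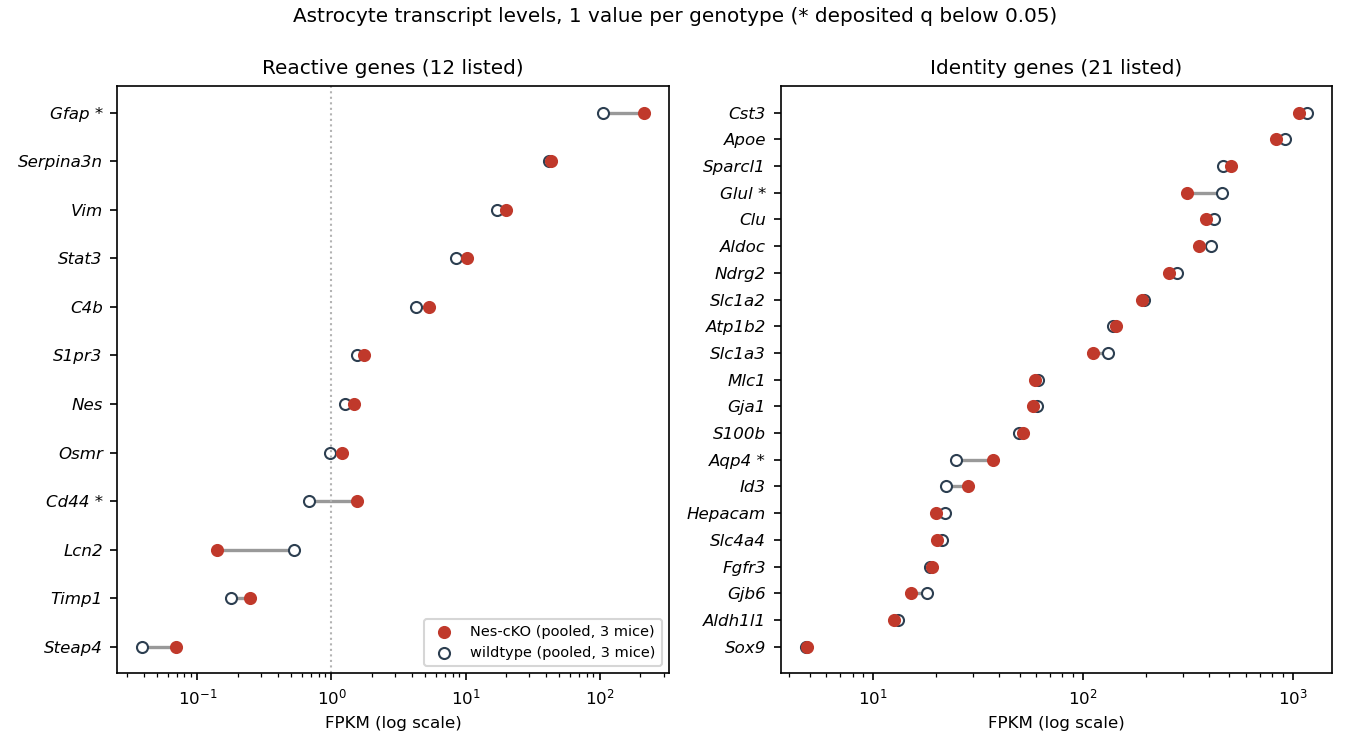
Level of each listed gene in FPKM on a log axis, reactive genes on the left and identity genes on the right, with filled points for Nes-cKO, open points for wildtype and an asterisk for a deposited q below 0.05. Gfap, at 214 FPKM in Nes-cKO and 106 FPKM in wildtype, and Glul, at 313 and 461 FPKM in the same order, show wide gaps among the highly expressed genes, and Lcn2, Timp1 and Steap4 lie left of the dotted line at 1 FPKM.

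Gfap encodes the glial fibrillary acidic protein, the main intermediate filament of the mature astrocyte. It stood at 214 FPKM in Nes-cKO, against 106 FPKM in wildtype, a 2.02-fold rise that passed in the authors' deposited table (q = 0.00152). The gene lies on chromosome 11 of the mm9 build, from 102748650 to 102758514. Of the tested genes at 1 FPKM or more, 132 had a higher ratio than Gfap. Its wildtype level ranked 521 among all genes of the table, so the rise concerned an abundant transcript. In FPKM, the ratio of Gfap to Vim was 10.6 in Nes-cKO and 6.18 in wildtype.

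Vim encodes vimentin, the filament partner of GFAP in reactive and immature astrocytes, which endothelial cells also make. Its level was 20.1 FPKM in Nes-cKO and 17.1 FPKM in wildtype, and it did not pass in the authors' deposited table (q = 0.413). Nes, which encodes the intermediate filament nestin of progenitors and some reactive astrocytes and gives the Cre driver its name, had 1.47 FPKM in Nes-cKO and 1.27 FPKM in wildtype (q = 0.654 in the authors' deposited table). The Gfap rise was thus not matched by a call for either of the filament genes that usually accompany it, although both ratios lay above 1. Of 11 intermediate filament genes, 9 reached 1 FPKM, of which Gfap rose, Synm fell and 7 did not pass. Synm encodes synemin, a large filament protein that assembles with vimentin or desmin. It had 4.04 FPKM in Nes-cKO and 6.40 FPKM in wildtype, and passed in the authors' deposited table (q = 0.00152). The neurofilament light gene Nefl, singled out after its value was seen as the other abundant filament transcript, had 171 FPKM in Nes-cKO and 158 FPKM in wildtype. As a share of the summed FPKM of the 11 filament genes, Gfap made up 40.2% in Nes-cKO and 26.5% in wildtype.

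Cd44 encodes the hyaluronan receptor of the cell surface, which reactive and fibrous astrocytes carry and which immune cells also express. It had 1.56 FPKM in Nes-cKO and 0.683 FPKM in wildtype, a 2.28-fold rise at low level (q = 0.00152 in the authors' deposited table). With a pseudocount of 1 FPKM its log2 ratio was 0.60, against 1.19 without. In mm9 the gene occupies chromosome 2 from 102651300 to 102741822, and the lower of these coordinates lies 20.4 kb beyond the locus of the glutamate transporter gene Slc1a2, another member. Slc1a2 itself had 193 FPKM in Nes-cKO and 195 FPKM in wildtype and did not pass in the authors' deposited table (q = 0.997).

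The promoters of 3 of the 4 called members, without Aqp4, are shown because Gfap is a known STAT3 target, and its window can be set beside those of a reactive and an identity gene that changed as well. RefSeq windows (GRCm38.p6 assembly, 250 bases before to 50 bases after the annotated start) matched 27 of the 33 symbols. Capitals mark a match to TTCCNGGAA, a palindromic form of the STAT site.
Gfap (chr11:102897151-102897450, minus strand): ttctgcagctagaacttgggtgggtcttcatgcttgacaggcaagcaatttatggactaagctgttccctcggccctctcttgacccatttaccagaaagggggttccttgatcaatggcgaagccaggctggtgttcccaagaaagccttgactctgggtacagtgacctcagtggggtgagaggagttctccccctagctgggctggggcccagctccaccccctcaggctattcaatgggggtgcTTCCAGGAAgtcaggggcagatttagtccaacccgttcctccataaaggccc
Cd44 (chr2:102901616-102901915, minus strand): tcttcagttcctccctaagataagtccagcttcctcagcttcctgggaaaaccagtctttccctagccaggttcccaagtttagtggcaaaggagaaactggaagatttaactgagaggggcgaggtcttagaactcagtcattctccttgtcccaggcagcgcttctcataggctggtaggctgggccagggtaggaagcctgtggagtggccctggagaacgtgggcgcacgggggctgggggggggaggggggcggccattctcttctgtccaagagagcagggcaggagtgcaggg
Glul (chr1:153899679-153899978, plus strand): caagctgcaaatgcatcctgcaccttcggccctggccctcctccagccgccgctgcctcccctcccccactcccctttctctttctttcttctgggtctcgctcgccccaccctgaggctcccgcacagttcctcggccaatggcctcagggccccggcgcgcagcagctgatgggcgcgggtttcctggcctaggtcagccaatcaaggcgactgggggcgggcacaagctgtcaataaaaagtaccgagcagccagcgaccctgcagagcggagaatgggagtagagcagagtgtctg
The Gfap match, TTCCAGGAA, occupies bases 249 to 257 of its window and so spans the annotated start.

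Of the 27 genes with a window, 3 held TTCCNGGAA on either strand, namely Gfap, Aldoc and Steap4, and 1.35% of all 27025 genes with a window did. The looser form TTCNNNGAA, which contains the first motif, was present in those genes and in Slc1a3, and in 9.55% of all genes. The AP-1 motif TGANTCA was present for Gja1 and Osmr, and in 8.97% of all genes. Among these 6 genes only Gfap was called by the authors' test. Aldoc lay below wildtype and Gja1 and Slc1a3 did as well, so genes with these letters in the window lay on both sides of 1. A match describes these letters, not a bound site.

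The signalling members of the reactive class lay slightly above wildtype without passing. Stat3, the transcription factor that carries signals of the interleukin 6 cytokine family, had 10.3 FPKM in Nes-cKO and 8.49 FPKM in wildtype (q = 0.201 in the authors' deposited table). Osmr, the receptor subunit for oncostatin M, had 1.20 FPKM in Nes-cKO and 0.978 FPKM in wildtype (q = 0.468 in the authors' deposited table). S1pr3, a receptor for sphingosine 1-phosphate, had 1.75 FPKM in Nes-cKO and 1.55 FPKM in wildtype (q = 0.819 in the authors' deposited table). The highest of these 3 ratios was 1.23, for Osmr.

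The rest of that cytokine pathway was followed through 20 ligand, receptor, kinase and target genes, which include Stat3 and Osmr. Of these, 11 reached 1 FPKM and none passed in either direction with the authors' Cuffdiff test, against 1 higher and 0 lower at an unadjusted p under 0.05, that gene being Stat3. Their median log2 ratio was -0.01. Over all 18 tested genes of the list it was 0.16, with 11 above wildtype and 2 called higher. Below 1 FPKM, the ligand gene Lif had 0.523 FPKM in Nes-cKO and 0.252 FPKM in wildtype and passed in the authors' deposited table (q = 0.00152). Bcl3, a nuclear cofactor of NF-kappaB and a target of this pathway, had 0.322 FPKM in Nes-cKO and 0.134 FPKM in wildtype (q = 0.0488 in the authors' deposited table). The feedback inhibitor gene Socs3, singled out after its value was seen, had 0.577 FPKM in Nes-cKO and 0.357 FPKM in wildtype (q = 0.0992 in the authors' deposited table). The transcripts of this pathway with the highest ratios were thus all below 1 FPKM.

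The remaining listed reactive genes, most of them for secreted proteins, did not pass or were not tested. Serpina3n, a serine protease inhibitor that is among the most sensitive transcripts of reactive astrocytes, had 43.6 FPKM in Nes-cKO and 42.0 FPKM in wildtype (q = 0.977 in the authors' deposited table). C4b, a complement component, had 5.29 FPKM in Nes-cKO and 4.25 FPKM in wildtype, a ratio of 1.25 with an unadjusted p of 0.0159 and q = 0.157 in the authors' deposited table. Its close copy C4a had 0.270 and 0.259 FPKM in the same order, and reads could be divided between the copies. Lcn2, the iron-siderophore binding protein lipocalin 2, was under the level limit with 0.141 FPKM in Nes-cKO and 0.527 FPKM in wildtype, the only tested reactive gene below wildtype (q = 0.0713 in the authors' deposited table). Timp1, a metalloproteinase inhibitor, had 0.248 FPKM in Nes-cKO and 0.179 FPKM in wildtype, and the table gives it the same locus as Syn1, the synapsin gene in which it lies, at 176 and 147 FPKM. Steap4, a metalloreductase, had 0.0686 FPKM in Nes-cKO and 0.0388 FPKM in wildtype and was not tested by the authors for lack of signal. The members nearest the limit of 1 FPKM were Osmr inside it and Lcn2 outside it.

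**Figure D2:**
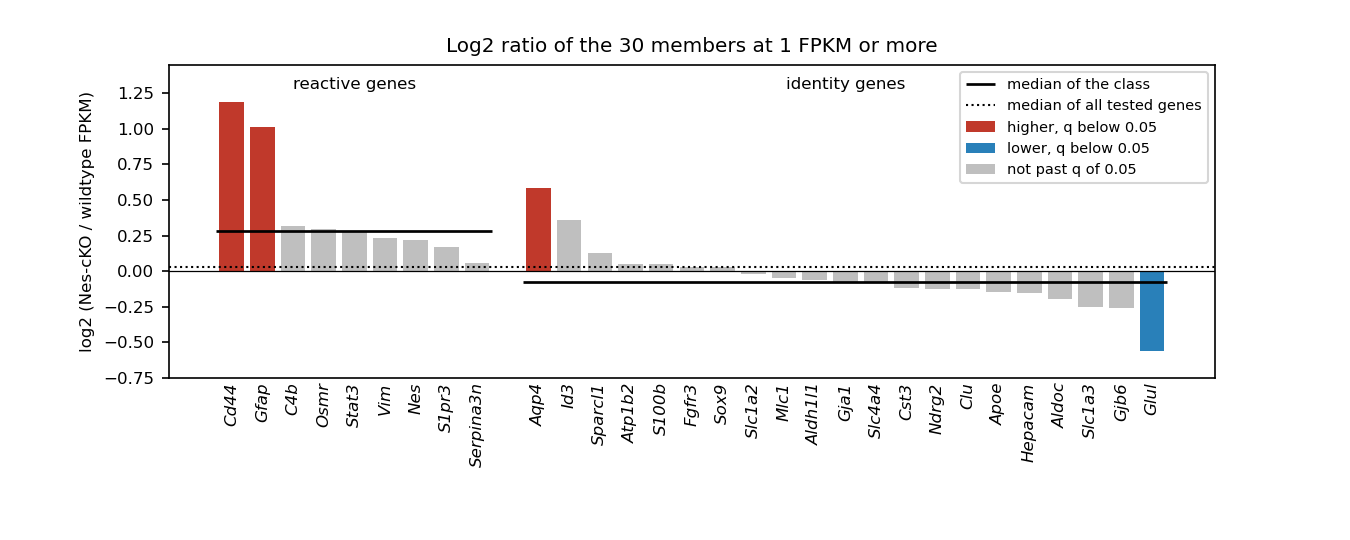
Log2 ratio of Nes-cKO over wildtype FPKM for the 30 members, reactive genes on the left and identity genes on the right, with red and blue bars for a deposited q below 0.05. The solid lines mark the class medians of 0.28 and -0.08 and the dotted line the median of all tested genes, 0.03.

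Reactive genes from outside the member list were examined to see whether the wider programme differed. Of 4 further genes shared by several forms of reactivity, 3 reached 1 FPKM, and the asparaginase gene Aspg rose while the others did not pass. Aspg had 1.08 FPKM in Nes-cKO and 0.663 FPKM in wildtype (q = 0.0363 in the authors' deposited table), and so reached 1 FPKM through its Nes-cKO value alone. Of 12 complement, antigen presentation and interferon genes, 9 reached 1 FPKM, and none of these passed in either direction with the authors' Cuffdiff test or had an unadjusted p under 0.05. Below that level Iigp1, an interferon-inducible GTPase gene, fell to 0.345 FPKM in Nes-cKO, against 0.611 FPKM in wildtype (q = 0.0388 in the authors' deposited table). Of 12 genes tied to injury and growth, 5 reached 1 FPKM, of which Ptgs2 and S100a10 rose and 3 did not pass. Ptgs2, which encodes cyclooxygenase 2 and is also an activity-induced gene of excitatory neurons, had 14.7 FPKM in Nes-cKO and 5.29 FPKM in wildtype (q = 0.00152 in the authors' deposited table). S100a10, the partner of annexin A2, had 22.5 FPKM in Nes-cKO and 14.8 FPKM in wildtype (q = 0.00152 in the authors' deposited table). The median log2 ratios of the 3 lists at 1 FPKM or more were 0.02, 0.10 and 0.13. Over all tested genes of each list, whatever their level, the median was 0.02 for the shared genes, 0.10 for the complement list and 0.45 for the injury and growth list, where 9 of 10 genes lay above wildtype.

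Among the identity genes, the water channel and the glutamate-recycling enzyme moved in opposite directions. Aqp4 encodes aquaporin 4, the water channel of the end-feet. It had 37.3 FPKM in Nes-cKO and 24.9 FPKM in wildtype, a 1.50-fold rise (q = 0.00152 in the authors' deposited table). Glul encodes glutamine synthetase, which turns glutamate taken up by astrocytes into glutamine. It had 313 FPKM in Nes-cKO and 461 FPKM in wildtype, a fall to 67.9% of wildtype (q = 0.00152 in the authors' deposited table). In mm9, Aqp4 lies on chromosome 18 from 15547903 to 15562193 and Glul on chromosome 1 from 155747075 to 155756844.

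Glul is not exclusive to astrocytes, since mature oligodendrocytes make glutamine synthetase too, and markers of that lineage moved with it. Of 13 oligodendrocyte markers, 11 fell, none rose in the authors' Cuffdiff test and 2 did not pass, and 12 had an unadjusted p under 0.05, all lower. Their summed level was 1247 FPKM in Nes-cKO and 1826 FPKM in wildtype, 68.3% of wildtype, with a median log2 ratio of -0.53 beside -0.56 for Glul. The markers with the greatest falls were Mal, Mobp, Trf and Mbp, with Mbp at 679 FPKM in Nes-cKO and 1006 FPKM in wildtype. The part of oligodendrocytes in the Glul difference was not tested. Among the identity genes, S100b is likewise made by oligodendrocytes, and it had 51.7 FPKM in Nes-cKO and 49.9 FPKM in wildtype (q = 0.978 in the authors' deposited table).

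The transporters that work beside glutamine synthetase did not pass. Slc1a3, the glutamate transporter GLAST, had 112 FPKM in Nes-cKO and 133 FPKM in wildtype, with an unadjusted p of 0.03665 and q = 0.278 in the authors' deposited table. The more abundant transporter GLT-1, encoded by Slc1a2, stood at 98.6% of wildtype. Atp1b2, the beta subunit of the glial sodium pump, had 144 FPKM in Nes-cKO and 139 FPKM in wildtype (q = 0.976 in the authors' deposited table). Slc4a4, the sodium bicarbonate cotransporter, had 20.3 FPKM in Nes-cKO and 21.4 FPKM in wildtype (q = 0.936 in the authors' deposited table). Of 14 astrocyte transport genes, these included, none passed in either direction with the authors' Cuffdiff test, and 3 higher and 1 lower had an unadjusted p under 0.05. The glutamine transporter gene Slc38a3, singled out after its value was seen because it exports the product of glutamine synthetase, had 28.8 FPKM in Nes-cKO and 22.6 FPKM in wildtype (q = 0.0589 in the authors' deposited table). No fall was called in the transporters listed on either side of the enzyme, and Slc1a3 was the 1 lower at an unadjusted p under 0.05. Among tested genes at 10 FPKM or more, none with an absolute log2 ratio under 0.3 was called. The lack of a call for Slc1a3, at a log2 ratio of -0.25, therefore does not show an equal level.

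End-foot and junction genes were also split. Of 12 genes of the end-foot and its dystrophin complex, Aqp4 was among the calls, none fell and 10 did not pass the authors' Cuffdiff test, with 3 higher and 0 lower at an unadjusted p under 0.05. The median log2 ratio of that list was 0.01. Mlc1, a membrane protein of astrocyte junctions at vessels, had 59.5 FPKM in Nes-cKO and 61.4 FPKM in wildtype (q = 0.983 in the authors' deposited table). Its adhesion partner Hepacam had 19.9 FPKM in Nes-cKO and 22.2 FPKM in wildtype (q = 0.710 in the authors' deposited table). The end-foot members other than Aqp4 thus lay a little below wildtype.

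The connexin members lay below wildtype without passing. Gja1, encoding connexin 43, had 57.8 FPKM in Nes-cKO and 60.9 FPKM in wildtype (q = 0.950 in the authors' deposited table). Gjb6, encoding connexin 30, had 15.2 FPKM in Nes-cKO and 18.2 FPKM in wildtype, with an unadjusted p of 0.0478 and q = 0.331 in the authors' deposited table. Among 7 connexin genes, the only call was Gjc3, a connexin of oligodendrocytes, which fell to 8.04 FPKM in Nes-cKO, against 11.3 FPKM in wildtype (q = 0.00499 in the authors' deposited table). The connexin median was -0.26, with 6 of the 7 below wildtype. The exception was Gjb2, encoding connexin 26, at 2.01 FPKM in Nes-cKO and 1.62 FPKM in wildtype (q = 0.476 in the authors' deposited table).

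The secreted and lipid-carrying identity genes were among the most abundant members, as was Glul. Cst3, the protease inhibitor cystatin C, had 1078 FPKM in Nes-cKO and 1171 FPKM in wildtype and ranked 14 among all genes in wildtype. Apoe, the lipoprotein of brain cholesterol transport, had 837 FPKM in Nes-cKO and 925 FPKM in wildtype. Clu, the chaperone-like apolipoprotein clusterin, had 385 FPKM in Nes-cKO and 421 FPKM in wildtype. These transcripts are shared with other cells, cystatin C and apolipoprotein E with microglia. Sparcl1, the synapse-promoting protein hevin, was the exception among them in direction, with 511 FPKM in Nes-cKO and 467 FPKM in wildtype. The q-values of these 4 genes in the authors' deposited table were between 0.754 and 0.845.

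The metabolic enzymes Aldoc and Aldh1l1, often used as astrocyte reporters, lay below wildtype. Aldoc, a brain form of the glycolytic enzyme aldolase, had 357 FPKM in Nes-cKO and 410 FPKM in wildtype (q = 0.493 in the authors' deposited table). Aldh1l1, a folate enzyme with little expression in other brain cells, had 12.6 FPKM in Nes-cKO and 13.1 FPKM in wildtype (q = 0.968 in the authors' deposited table). Ndrg2, a cytoplasmic protein of protoplasmic astrocytes, had 259 FPKM in Nes-cKO and 282 FPKM in wildtype (q = 0.813 in the authors' deposited table). Astrocyte markers of this kind were thus present in both genotypes in the labelled tissue.

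The members that regulate astrocyte fate did not pass. Sox9, the transcription factor that starts gliogenesis, had 4.88 FPKM in Nes-cKO and 4.78 FPKM in wildtype (q = 0.995 in the authors' deposited table). Fgfr3, a fibroblast growth factor receptor of the lineage, had 19.1 FPKM in Nes-cKO and 18.7 FPKM in wildtype (q = 0.993 in the authors' deposited table). When ratios were centred on the median of all tested genes, these 2 lay just below 0 on the log2 scale, at -0.0017 for Sox9 and -0.000862 for Fgfr3. Id3, an inhibitor of basic helix-loop-helix factors induced by bone morphogenetic proteins and expressed in endothelium too, had 28.5 FPKM in Nes-cKO and 22.2 FPKM in wildtype, with an unadjusted p of 0.0091 and q = 0.103 in the authors' deposited table. Of 15 glial Notch, Id and nuclear factor I genes, Hes1 rose, Jag1 fell and 13 did not pass, with a median log2 ratio of 0.02. Of the 15, 8 lay above and 7 below wildtype, and 3 higher and 2 lower had an unadjusted p under 0.05 in the authors' deposited table. Hes1, a Notch target, had 8.76 FPKM in Nes-cKO and 6.36 FPKM in wildtype (q = 0.0388 in the authors' deposited table). Jag1, a Notch ligand, had 1.16 FPKM in Nes-cKO and 1.69 FPKM in wildtype (q = 0.0148 in the authors' deposited table).

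**Figure D3:**
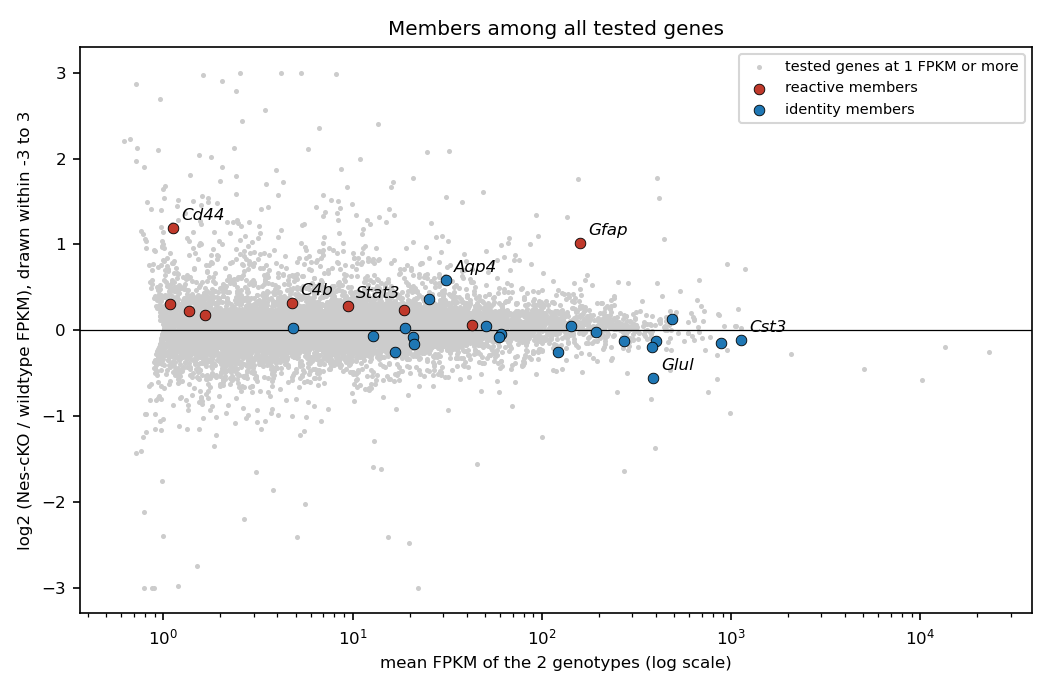
Log2 ratio of Nes-cKO over wildtype FPKM against mean FPKM on a log axis for the tested genes at 1 FPKM or more (grey), with reactive members in red and identity members in blue. Ratios beyond -3 or 3 are drawn at that limit. Gfap, at a log2 ratio of 1.01, lies above most genes of its level, while most identity members lie inside the band of grey points.

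The stem cell compartment shares Gfap, Vim and Nes with reactive astrocytes, so its other genes were set beside them. Of 11 radial glia and neural stem cell genes, Gfap, Tnc and Fabp7 rose, none fell and 8 did not pass the authors' Cuffdiff test, with 3 higher and 1 lower at an unadjusted p under 0.05. Tnc, the matrix protein tenascin C, had 2.12 FPKM in Nes-cKO and 1.05 FPKM in wildtype (q = 0.00152 in the authors' deposited table). Fabp7, a lipid-binding protein of radial glia and astrocytes, had 42.4 FPKM in Nes-cKO and 30.3 FPKM in wildtype (q = 0.00280 in the authors' deposited table). Sox2 and Hopx, stem cell genes that astrocytes express too, are named with their values known. Sox2 had 12.3 FPKM in Nes-cKO and 12.2 FPKM in wildtype, Hopx had 59.6 FPKM in Nes-cKO and 54.9 FPKM in wildtype, and neither passed. The part of stem cells in the Gfap difference was not tested.

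A second set of 22 astrocyte identity genes, none of them a member, was set beside the identity members. Of the 21 that reached 1 FPKM, Mfge8 fell, none rose and 20 did not pass, with a median log2 ratio of -0.06 beside -0.08 for the identity members. Mfge8, a bridging protein for engulfment by phagocytes, had 42.9 FPKM in Nes-cKO and 56.0 FPKM in wildtype (q = 0.0195 in the authors' deposited table). Of the 21, 14 lay below wildtype and 7 above, the same split as among the 21 identity members. At an unadjusted p under 0.05 in the authors' deposited table, 5 of this set were lower and none higher, against the 5.42% lower and 9.22% higher given above. Summed over all listed genes, the level of the identity members was 4515 FPKM in Nes-cKO and 4921 FPKM in wildtype, 91.8% of wildtype, and that of the second set was 93.1% of wildtype.

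**Figure D4:**
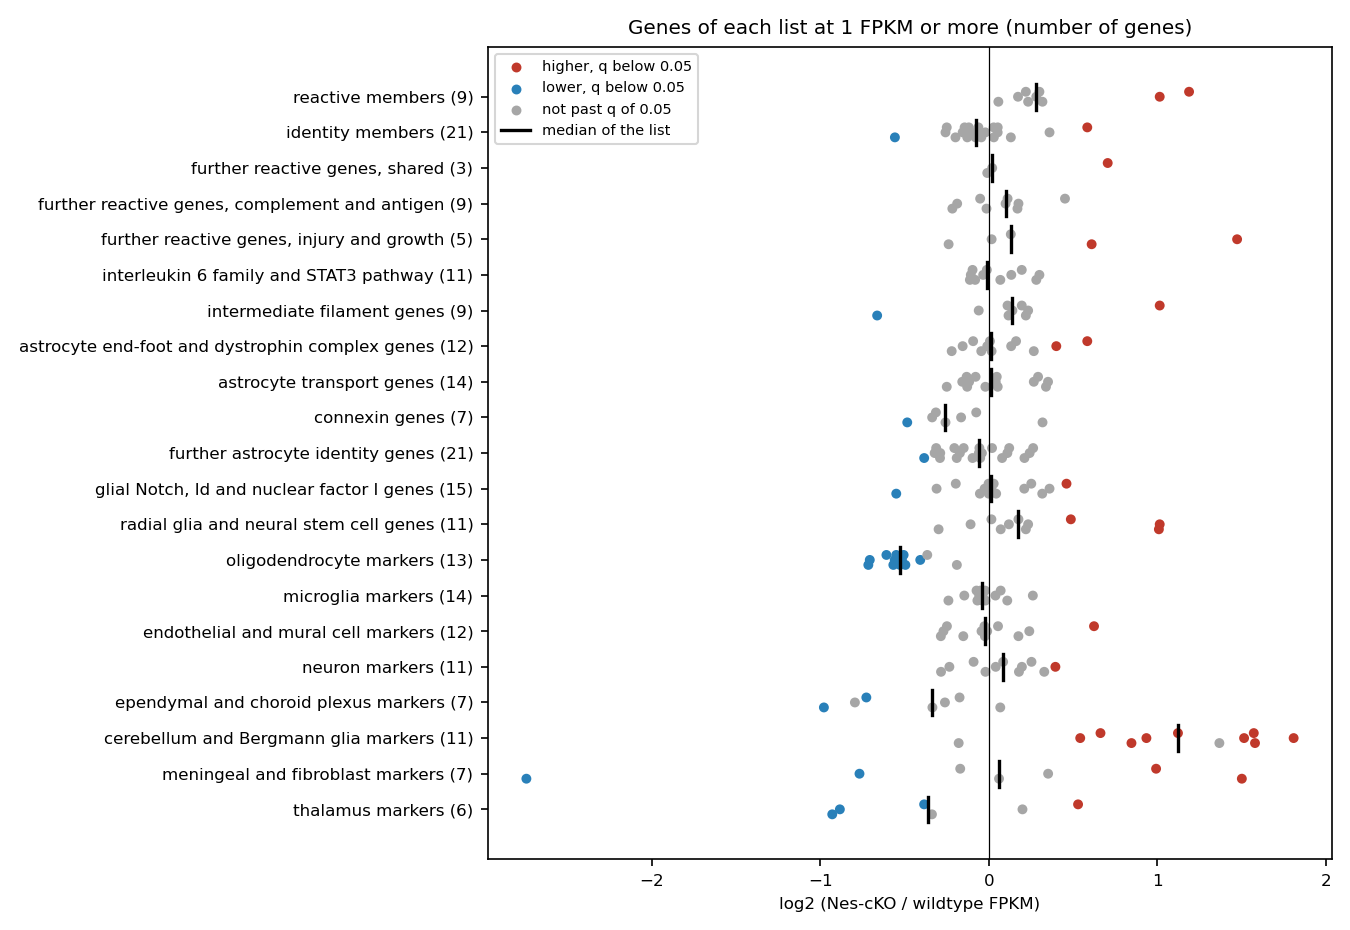
Log2 ratio of Nes-cKO over wildtype FPKM for the genes of each list at 1 FPKM or more, with red and blue points for a deposited q below 0.05 and a black bar at the list's median. Reactive members centre at 0.28, radial glia and neural stem cell genes at 0.18 and connexin genes at -0.26. The remaining astrocyte, filament and pathway lists centre between -0.08 and 0.14, with single genes far from the median. Oligodendrocyte markers centre at -0.53 and cerebellum and Bergmann glia markers at 1.12.

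Markers of other cells and of neighbouring tissue differed between the same pools. Microglia markers did not pass for any of 14 genes in the authors' Cuffdiff test, nor did any have an unadjusted p under 0.05, and their summed level was 289 FPKM in Nes-cKO and 298 FPKM in wildtype. Among 12 genes of vessels, endothelial and mural, the call was a rise of Kdr, and among 11 neuron markers it was a rise of Slc17a7. Of 10 ependymal and choroid plexus markers, cells that express Aqp4 and Vim in part, 7 reached 1 FPKM, of which Ttr and Lbp fell and 5 did not pass, and the summed level was 23.3 FPKM in Nes-cKO and 31.5 FPKM in wildtype. Of 11 cerebellum and Bergmann glia markers 9 rose and 2 did not pass, with a summed level of 77.4 FPKM in Nes-cKO and 36.2 FPKM in wildtype, led by Fat2, Gabra6, Car8 and Cbln3. The Bergmann glia genes of that list, named with their values known, lay on opposite sides of wildtype. Gdf10, the 1 gene of the 11 below wildtype, had 4.56 FPKM in Nes-cKO and 5.16 FPKM in wildtype (q = 0.747 in the authors' deposited table). A2m rose, with 1.44 FPKM in Nes-cKO and 0.912 FPKM in wildtype (q = 0.00795 in the authors' deposited table). The 8 genes of meninges and fibroblasts were split, with rises of Col1a1 and Col1a2 and falls of Ogn and Slc6a13, and of 6 thalamus markers Calb2 rose and Lhx9, Prkcd and Ntng1 fell. Of the genes called in these lists, Fat2, En2, A2m and Col1a1 reached 1 FPKM through their Nes-cKO value alone. Lbp and Ogn reached it through their wildtype value alone. The part of tissue carry-over in the differences of Gfap, Cd44 and Aqp4 was not tested.

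The size of change that the deposited test called bears on the members that did not pass. Among 6106 tested genes at 10 FPKM or more, none of the 5406 with an absolute log2 ratio under 0.3 was called, while 89.4% of the 406 with a ratio of 0.4 or more were. The smallest ratio called at this level was 0.34. Of the 24 members at 10 FPKM or more, 21 were not called, and 20 of these had an absolute log2 ratio under 0.3, with Id3 at 0.36 as the exception. No gene of this level was thus called at the size seen for Slc1a3, Gjb6, Stat3 and Vim, and their missing the threshold does not show equal levels.

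**Figure D5:**
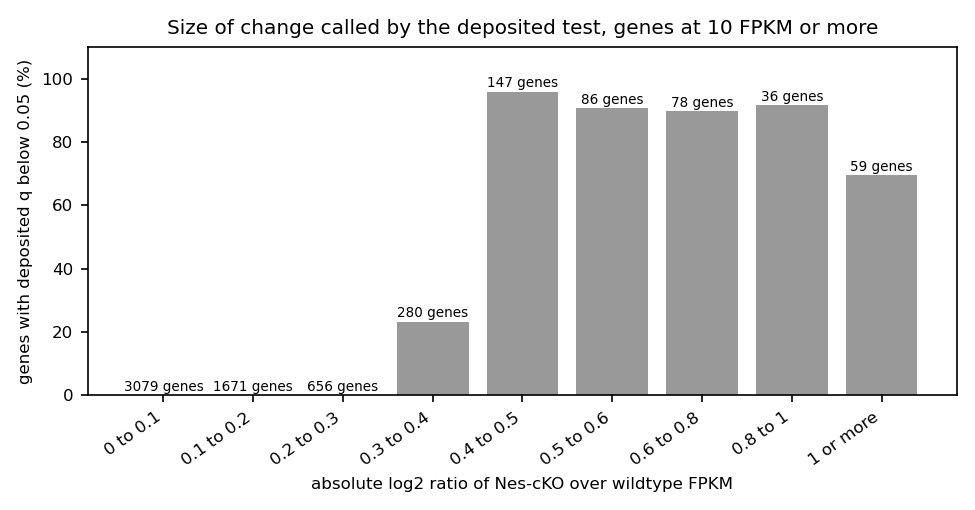
Percentage of tested genes at 10 FPKM or more with a deposited q below 0.05, by absolute log2 ratio, with the number of genes above each bar. No gene was called below 0.3, where 20 of the 21 uncalled members at this level lie.

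Splicing could be followed only through the events that the authors listed. The authors' deposited splicing tables list 320 events with an inclusion change above 10 percentage points, and none lay in any of the 33 genes. Smaller changes would not appear there, so equal splicing of the members is not shown. Among the genes of the other astrocyte lists there were 2 events. A 267 nt cassette exon of Fgfr2, a growth factor receptor gene, on the minus strand of mm9 chromosome 7 from 137385892 to 137386158, had an inclusion ratio of 52.2% in Nes-cKO and 64.4% in wildtype. Its junction reads gave 70.2% in Nes-cKO (57 reads, 95% Wilson interval 57.3% to 80.5%) and 78.7% in wildtype (61 reads, interval 66.9% to 87.1%). Fisher's exact test (two-sided) on the pooled reads did not pass (adjusted p = 0.364), where 24.1% of 249 listed cassette exons did. A 4 nt extension at an alternative 5' splice site of Mfge8, whose transcript also fell, had an inclusion ratio of 76.1% in Nes-cKO and 89.2% in wildtype and did not pass Fisher's exact test (adjusted p = 0.266), where 17.1% of 35 events did. These intervals and tests cover counting error in the pooled reads only, and they compare the pools, not the genotypes.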

How the data were processed

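Hippocampal RNA of each mouse was made into strand-specific mRNA libraries, sequenced from both ends at 50 bp according to the labels' protocols. CASAVA, Cufflinks, Cuffdiff and the mm9 build are named in the submitters' processing notes. The aligner is not given in the sources used here.

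Per the file headers, the deposited gene table holds 1 FPKM value per gene and genotype with the p-values and q-values of the authors' Cuffdiff test. Of 23235 genes 14964 were tested and 8270 had too little signal. Adjusting the deposited p-values of tested genes by Benjamini-Hochberg returned the deposited q-values with differences of at most 5.21e-07. The lowest q, 0.00152, is shared by 491 genes. The deposited splicing tables hold, per the file headers, inclusion ratios (a fraction per genotype) and junction read counts pooled by the authors.

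Here, ratios of Nes-cKO over wildtype FPKM were taken on the log2 scale with no pseudocount. Members reached 1 FPKM in Nes-cKO, wildtype or both. No test of expression was run on the single values, so calls use the deposited q under 0.05. Inclusion reads were the rounded mean of the junctions on either side of the segment, tested against skipping reads with Fisher's exact test and Benjamini-Hochberg adjustment within each event type. Wilson intervals are at the 95% level. Locus starts were counted from base 1 after 7152 widths matched RefSeq gene lengths when read as counted from 0, against 452 otherwise.

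The members and the 19 other lists were chosen with earlier results of these data known. The genes named are all 33 listed genes and, for each other list, up to 4 members past the q by size of ratio, or the 2 most highly expressed where none passed. Some genes that this rule names are not reported here. Any further gene was picked with its values known. The ratio, counting and junction steps were tested on simulated data. Promoter windows are RefSeq sequences of GRCm38.p6, so their coordinates differ from the mm9 loci. Python 3.11.15, numpy 2.4.6, pandas 2.3.3, scipy 1.17.1 and matplotlib 3.10.9 were used.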

Additional observations from a re-analysis of the deposited data

How the results depend on the processing

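Calls for the members depended little on the threshold. With a q of 0.01 or 0.10, or with no filter on level, the counts of 2 higher and 0 lower reactive genes and of 1 higher and 1 lower identity gene were the same. With an FPKM of at least 5, 1 reactive gene was higher, because Cd44 is then left out by level. In the other lists 15 genes were then higher in place of 23, both counts including the members Gfap and Aqp4. At an unadjusted p under 0.05, a choice made after seeing the data, 4 reactive genes were higher, and 2 identity genes were higher and 3 lower. A pseudocount of 1 FPKM gave medians of 0.22 for reactive and -0.074 for identity genes and a difference of 0.29. Centring on the median of all tested genes gave 0.25 and -0.11, and the median of all tested genes was 0.042 with an FPKM of at least 5. After centring, Sox9 (-0.0017) and Fgfr3 (-0.000862), neither of them called, changed sign.

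No paired analysis was possible because the gene table holds 1 value per genotype, and for the same reason leaving out each mouse was not run. The spread between mice can enter only through the authors' test, and depth per library is unknown. Low transcripts such as Cd44, Lcn2 and Steap4 are limited most by depth.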
